A study of Mus musculus with 28 samples.

Results

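The receptor subunit genes described here code for the ionotropic glutamate receptors (AMPA, NMDA, kainate and delta), the metabotropic glutamate receptors, the GABA-A and glycine receptors and the nicotinic acetylcholine receptors of the mouse. They were chosen by gene symbol alone: Gria, Grin, Grik, Grid or Grm with a digit, or a symbol that starts with Gabr, Glra or Chrn, without Chrna9 and Chrna10. This gave 62 of the 19421 genes in the table, of which 53 passed the filter on low values (a normalized count of 10 or more in 2 or more libraries) together with 16837 genes in all. All members of the AMPA (4), NMDA (7), kainate (5), delta (2), metabotropic (8) and glycine (4) classes passed. Of the GABA-A genes 12 of 18 passed, of the muscle type nicotinic genes 4 of 5 and of the neuronal type nicotinic genes 7 of 9.

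The study drove Atoh1, Gfi1 and Pou4f3, transcription factors of inner ear hair cells (HCs), alone and in every combination in mouse embryonic stem cells grown as embryoid bodies (EBs). There were 7 lines made from A2loxCre cells: iAtoh1, iGfi1, iPou4f3, iG+A (Gfi1 and Atoh1), iG+P (Gfi1 and Pou4f3), iP+A (Pou4f3 and Atoh1) and iGPA (all of them). Each line carried a doxycycline (Dox) responsive cassette ending in the fluorescent protein Venus, and the untreated controls carried it too. Dox was given at 2 µg/ml from day 4, and RNA was taken 48 h later at day 6. Dox libraries came from sorted Venus+ cells and No Dox libraries from whole, unsorted EBs, so the effect of the factors and that of sorting cannot be told apart within a line. There were 2 libraries per group, described as different clones of a line, and 28 in all. These are EB cells and not ear tissue, and the cassette was expressed at levels set by the Dox promoter.

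Ionotropic receptors are ion channels assembled from several subunits that open when the transmitter binds. Metabotropic glutamate receptors signal through G proteins. Hair cells release glutamate onto AMPA receptors of afferent neurons, and receive efferent acetylcholine through receptors built from Chrna9 and Chrna10, which are not among the genes described here. The subunits present set a receptor's properties: Gria2 makes AMPA receptors impermeable to calcium, and the GluN2 subunits (Grin2a to Grin2d) set the kinetics of NMDA receptors.

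The summed values of a library were between 36.8 and 40.4 M normalized counts, and the steps between low values put the depth at about 30.3 to 48 M reads. Atoh1 was at 12816 to 21242 normalized counts in the 8 Dox libraries of lines that carry it and at no more than 120 in all others. Gfi1 was at 8119 to 12487 against at most 119, and Pou4f3 at 4694 to 19883 against at most 101. Of 10 neuronal markers, 10 were past the threshold upward in iP+A, 9 in iGPA, 5 in iAtoh1, 4 in iG+A, 2 in iPou4f3, 2 in iG+P and 0 in iGfi1 (2 in iGfi1 at an unadjusted p below 0.05, limma). Of 11 hair cell markers, 6 rose in each of iG+A, iG+P and iGPA, 2 in iPou4f3, 2 in iP+A, 1 in iGfi1, where 1 fell, and 0 in iAtoh1 (1 at an unadjusted p below 0.05). Of the 6 fibroblast and mesenchyme markers, 5 fell and 1 rose in iGPA, 4 fell in iG+P, 3 in iG+A, 2 in each of iAtoh1 and iGfi1, and 1 fell and 1 rose in iP+A. The share of each cell type in the unsorted EBs was not measured, and fewer cells of a type and less RNA per cell cannot be told apart in these bulk samples.

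The receptor genes were at low to moderate levels in the untreated EBs, and their sum took up more of the RNA after Dox. The summed normalized count of the 62 genes was between 12350 and 14835 in the 14 No Dox libraries and between 15541 and 36601 in the 14 Dox libraries. A few genes of high level weigh heavily in this sum. In iG+P Dox replicate 1 it was 24226, with Grik5 at 8909 and Grin2c at 3835. Of the 53 genes past the filter, between 25 (iG+A) and 38 (iGPA and iGfi1) were higher with Dox. Per kb of the longest transcript, the highest untreated levels were those of Gabrb1 (median 944 normalized counts per kb), Grik5 (837) and Gria3 (350). Most other members were far lower. A change was called where the adjusted p (limma, Benjamini-Hochberg over all 16837 genes) was below 0.05 and the log2 fold change was at least 1.5 in size.

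By that rule 30 of the 53 genes were called in at least 1 line, 22 of them only higher, 7 only lower and 1 (Chrna4) in both directions, where 25% of all genes were called in at least 1 line. In iGPA 13 genes rose and 4 fell, where 8.65% and 5.31% of all genes did so. In iP+A 16 rose and 1 fell, beside 4.7% and 2.58% of all genes. In iG+A 10 rose and 4 fell (7.35% and 4.95% of all genes), and in iG+P 8 rose and 5 fell (5.16% and 5.36%). With a single factor 8 rose and 0 fell in iAtoh1 (2.89% and 2.52% of all genes), 3 rose and 3 fell in iGfi1 (2.15% and 2.67%), and 6 rose and 0 fell in iPou4f3 (1.47% and 0.606%). At an unadjusted p below 0.05, 20 of the 53 differed in either direction in iAtoh1, beside 5986 of all 16837 genes, and 14 in iPou4f3, beside 3065. With the clone number as a replicate block, 1 gene fell in iAtoh1. The median log2 fold change of the 53 genes was 0.71 in iGPA, 0.39 in iAtoh1, 0.33 in iP+A and -0.02 in iG+A, where the median of all genes lay between -0.03 and 0.02 in every line. Of the 81 calls, 55 held in each fit that left out 1 library of the line, and those that did not are given with their values.

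**Figure D1:**
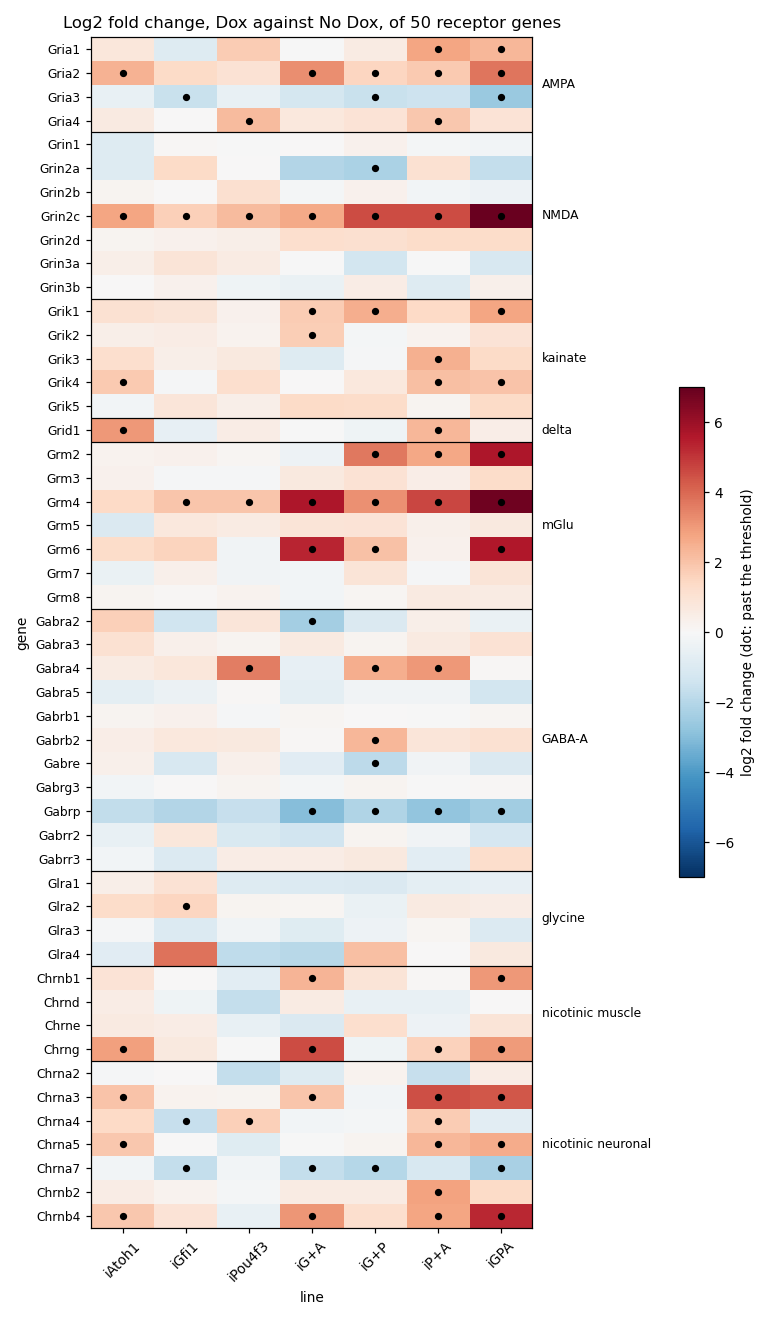
Log2 fold change of Dox against No Dox in each of the 7 lines (columns) for 50 of the receptor genes past the filter (rows, by class); red is higher with Dox, blue is lower, and a dot marks a change past the threshold. Grin2c carries a dot in all 7 columns and Grm4 in 6, while Chrna7 is blue with a dot in the 4 lines that carry Gfi1.

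The AMPA receptor genes moved in opposite directions. Gria2, the subunit that blocks calcium entry, was at 133 and 186 normalized counts in untreated iGPA EBs and at 1715 and 2590 in Dox-treated iGPA cells. In iG+A it was at 290 and 263 without Dox and at 2495 and 2705 with it. Both Dox libraries of each line lay far above both controls. The log2 fold change was 3.74 in iGPA (SE 0.30, adjusted p = 1.63e-08), 3.23 in iG+A, 2.45 in iAtoh1, 1.84 in iP+A and 1.52 in iG+P. In iP+A it was 1.48 without Dox replicate 2 and in iG+P 1.18 without No Dox replicate 1 and 1.34 without Dox replicate 1, all under the threshold of 1.5. Against all untreated libraries as one control the iP+A value was 0.82, with an adjusted p of 0.108, and the iG+P value was 1.45. The latter was also under the threshold with a pseudocount of 5 and with quantile normalization (1.38).

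Gria3, the most abundant AMPA subunit of the untreated EBs, fell. It was at 1729 and 1976 normalized counts in untreated iGPA EBs and at 347 and 273 in Dox-treated cells, with a log2 fold change of -2.58 (SE 0.27, adjusted p = 4.44e-07). It also fell in iGfi1 (-1.58) and iG+P (-1.55). In iGfi1 the value was -1.46 without No Dox replicate 2 and -1.35 against all untreated libraries, short of the threshold, which it also missed narrowly with quantile normalization. All 7 fold changes of Gria3 were negative, the smallest being -0.51 in iAtoh1.

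Gria1 rose in iP+A, from 36.5 and 11.5 to 181 and 115 normalized counts (log2 fold change 2.75, SE 0.52, adjusted p = 0.00074), and in iGPA (2.34, SE 0.52). The adjusted p in iP+A was 0.0565 with only the groups compared. Gria4 rose in iPou4f3 from 202 and 197 to 840 and 1013 normalized counts (2.20, SE 0.32, adjusted p = 0.000273) and in iP+A (1.89). The make-up of the AMPA subunit pool also differed after Dox. Per kb of transcript, Gria3 was 74.2% to 91.2% of the summed AMPA subunit level in the 14 untreated libraries, and Gria2 was 1.46% to 8.39%. In Dox-treated iGPA cells Gria2 was 54.6% and 69.8% and Gria3 14.8% and 9.83%. In Dox-treated iG+A cells Gria2 was 53.5% and 61.7%. Gria2 reached 23.1% and 35.5% in iAtoh1, while in iPou4f3 (9.03% and 11.3%) and iP+A (8.03% and 15.4%) it remained the smaller share. Shares within a sample change together, so a lower share of Gria3 also follows from a higher Gria2.

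Among the NMDA receptor genes Grin2c was called upward in all 7 lines. Grin2c, a GluN2 subunit known best from cerebellar granule cells and astrocytes, was at 57.2 and 54.2 normalized counts in untreated iGPA EBs and at 7178 and 6626 in Dox-treated iGPA cells. It was at 139 and 150 without and 3835 and 3003 with Dox in iG+P, and at 75.9 and 99.6 without and 2383 and 1835 with Dox in iP+A. In every line both Dox libraries lay above all 14 untreated libraries, none of which passed 181. The log2 fold change was 6.93 in iGPA (SE 0.33, adjusted p = 3.97e-11), 4.57 in iP+A, 4.55 in iG+P, 2.77 in iAtoh1, 2.66 in iG+A, 2.23 in iPou4f3 and 1.65 in iGfi1. The call held in each fit without 1 library in 6 lines, whereas in iGfi1 the value was 1.35 without Dox replicate 1. In iPou4f3 the adjusted p was 0.0847 when only the groups compared were fitted.

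Grin2c made up 16.9% to 49.3% of the summed GluN2 level per kb in the untreated libraries. It was 96.6% and 95.6% of it in Dox-treated iGPA cells, 94.2% and 93% in iG+P, 80.5% and 73.3% in iP+A and 80.1% and 86.8% in iAtoh1. It was lower in iG+A (59.1% and 76.6%), iGfi1 (63% and 52.3%) and iPou4f3 (46.8% and 70.7%), where 1 Dox library lay within the untreated range. Grin2a, the GluN2 subunit of mature forebrain synapses, fell in iG+P, from 101 and 43.9 to 13.8 and 13 normalized counts (log2 fold change -2.23, SE 0.81, adjusted p = 0.0413). Its control libraries lay far apart, and the adjusted p lay between 0.117 and 0.265 in 3 of the 4 fits without 1 library and was 0.0584 without the trend. Grin1, the subunit that every NMDA receptor needs, was between 28.7 and 116 normalized counts in all 28 libraries, with fold changes from -0.89 to 0.30 (log2), none called. Grin2d (0.20 to 1.28), Grin2b (-0.37 to 1.11), Grin3a (-1.26 to 0.89) and Grin3b (-0.88 to 0.51) were not called in any line.

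**Figure D2:**
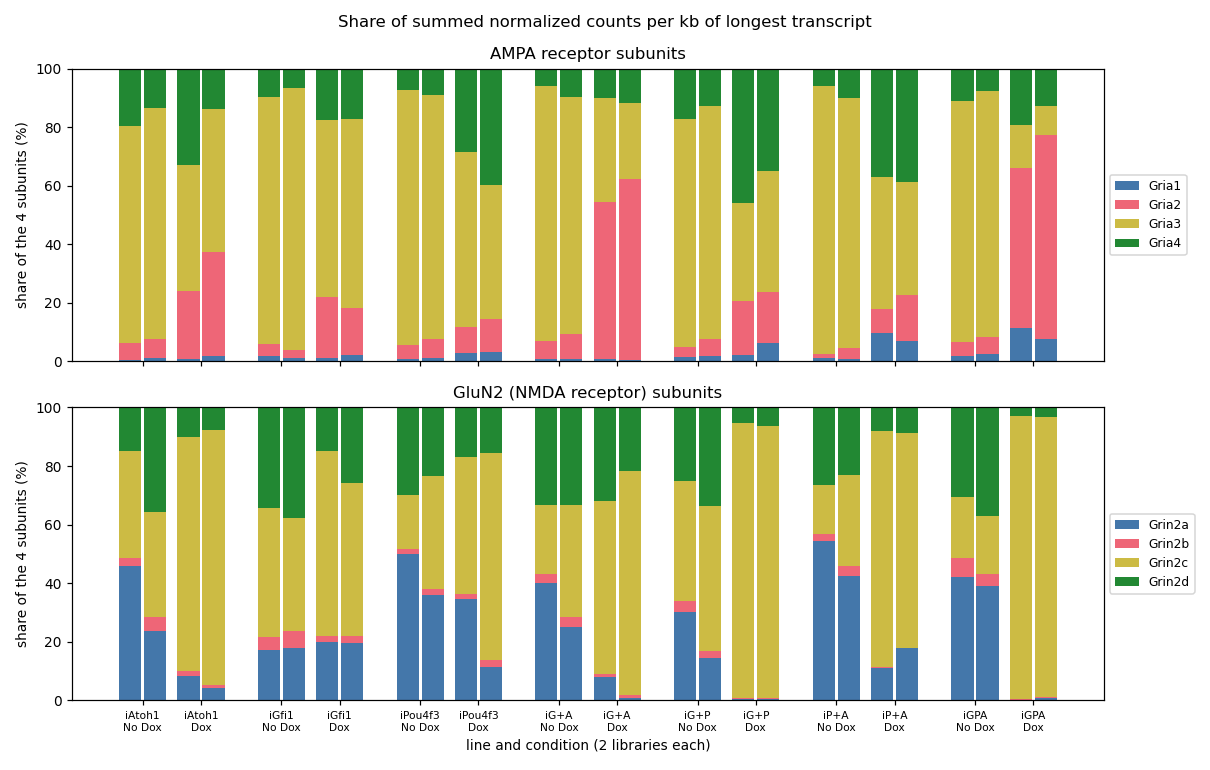
Share (%) of each subunit in the summed normalized counts per kb of longest transcript, for the 4 AMPA subunits (top) and the 4 GluN2 subunits (bottom); each bar is 1 library, with 2 No Dox and 2 Dox bars per line. Gria2 passes 50% in the Dox bars of iG+A and iGPA, and Grin2c passes 90% in those of iG+P and iGPA.

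The kainate receptor genes were called upward only. Grik5, a high-affinity subunit that works together with Grik1 to Grik3, was by far the highest per kb, at 79.6% to 87.8% of the kainate sum in untreated libraries. Its change was under the fold required but tight. In iGPA it was at 3216 and 3037 normalized counts without and 7714 and 7916 with Dox, a log2 fold change of 1.32 (SE 0.09, adjusted p = 1.56e-09). The values in iG+A (1.33) and iG+P (1.28) were as close to the threshold without reaching it. In iGfi1 Grik5 went from 3559 and 3141 to 5734 and 6163 normalized counts. It went from 3210 and 3022 to 3858 and 4431 in iPou4f3 and from 3886 and 3203 to 4124 and 3900 in iP+A. In iAtoh1 the log2 fold change was -0.18.

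Grik1 was called upward in the lines that carry Gfi1 with another factor, at 2.77 in iGPA (SE 0.37), 2.53 in iG+P and 1.75 in iG+A on the log2 scale. In iG+P it was at 69.3 and 74.2 normalized counts without and 464 and 376 with Dox. In iG+A the value was 1.34 without No Dox replicate 2. Grik1 was not called in iP+A, where it went from 53.5 and 44.3 to 131 and 130 normalized counts. Nor was it called in iAtoh1, from 95.2 and 53.8 to 187 and 126. The differences of its effect between iGPA and iP+A and between iG+A and iAtoh1 were not called. Grik2 rose in iG+A, from 74.4 and 91.7 to 309 and 250 normalized counts (1.74, SE 0.32, adjusted p = 0.000346), and was just under the fold required with quantile normalization. Grik3 rose in iP+A, from 559 and 823 to 4084 and 3546 normalized counts (2.49, SE 0.26, adjusted p = 1.14e-06). Grik4, the other high-affinity subunit, rose in iP+A (2.12), iGPA (2.01) and iAtoh1 (1.82, SE 0.18), where it was at 324 and 338 without and 1123 and 1223 with Dox.

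Grid1, a delta receptor, belongs to relatives of the ionotropic family that act at synapses through cerebellins. It was at 224 and 289 normalized counts in untreated iAtoh1 EBs and at 1707 and 2551 in Dox-treated cells (log2 fold change 3.03, SE 0.30, adjusted p = 1.45e-06). It also rose in iP+A, from 252 and 255 to 1426 and 1152 (2.33), but was at -0.02 in iG+A and 0.47 in iGPA.

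Among the metabotropic glutamate receptor genes Grm2, Grm4 and Grm6 rose, members of groups II and III, which couple to inhibitory G proteins. Grm4, a group III receptor, was at 44.5 and 33.7 normalized counts in untreated iGPA EBs and at 4223 and 4793 in Dox-treated iGPA cells. In iG+A it went from 39.7 and 45.4 to 2365 and 1994, and in iP+A from 51.8 and 53.5 to 1525 and 1224. The untreated level was nearly the same in every line (33.7 to 61), and every Dox library lay above it, at 136 or more. The log2 fold change was 6.82 in iGPA (SE 0.19, adjusted p = 3.03e-14), 5.64 in iG+A, 4.67 in iP+A, 3.21 in iG+P, 1.96 in iPou4f3 and 1.92 in iGfi1. In iAtoh1 it was 1.38, from 61 and 50.9 to 148 and 145, below the fold required. In iPou4f3 the adjusted p was 0.0532 when only the groups compared were fitted. Grm4 was 11.4% to 20.7% of the summed metabotropic level per kb without Dox and 80.7% and 77.4% of it in Dox-treated iGPA cells.

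Grm6, the group III receptor of retinal ON bipolar cells, rose in iGPA from 10.8 and 3.77 to 244 and 557 normalized counts (log2 fold change 5.62, SE 0.75, adjusted p = 7.6e-06). In iG+A it rose from 22.3 and 14.8 to 621 and 940 (5.32). In iP+A it was at 4.56 and 4.18 without and 7.45 and 4.17 with Dox, so that these cells lay within the untreated range. The rise in iG+P (2.06) was small in counts, from 6.52 and 18.4 to 57.8 and 42.3, and had an adjusted p of 0.0409. It was not called in the paired fit with the replicate block (adjusted p = 0.0683), nor in 3 of the 4 fits without 1 library (adjusted p up to 0.305, without No Dox replicate 1), without the trend (0.0519) or with quantile normalization (0.0619).

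Grm2, a group II receptor, rose in the 3 lines that carry Pou4f3 with another factor. It was at 5.68 and 3.19 normalized counts without and 253 and 280 with Dox in iGPA (log2 fold change 5.66, SE 0.75). In iG+P it went from 4.15 and 18.8 to 138 and 119 (3.68), and in iP+A from 15.2 and 8.96 to 91.6 and 70.9 (2.68, adjusted p = 0.0135). In iPou4f3 the Dox libraries, at 5 and 17.5, overlapped the controls, at 4.22 and 16.9. The iP+A call was lost without No Dox replicate 2 (adjusted p = 0.0988) or Dox replicate 1 (0.0924). Not called were Grm5 (-1.01 to 0.97) of group I, Grm3 (-0.08 to 1.26) of group II, and Grm7 (-0.47 to 0.91) and Grm8 (-0.18 to 0.61) of group III.

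**Figure D3:**
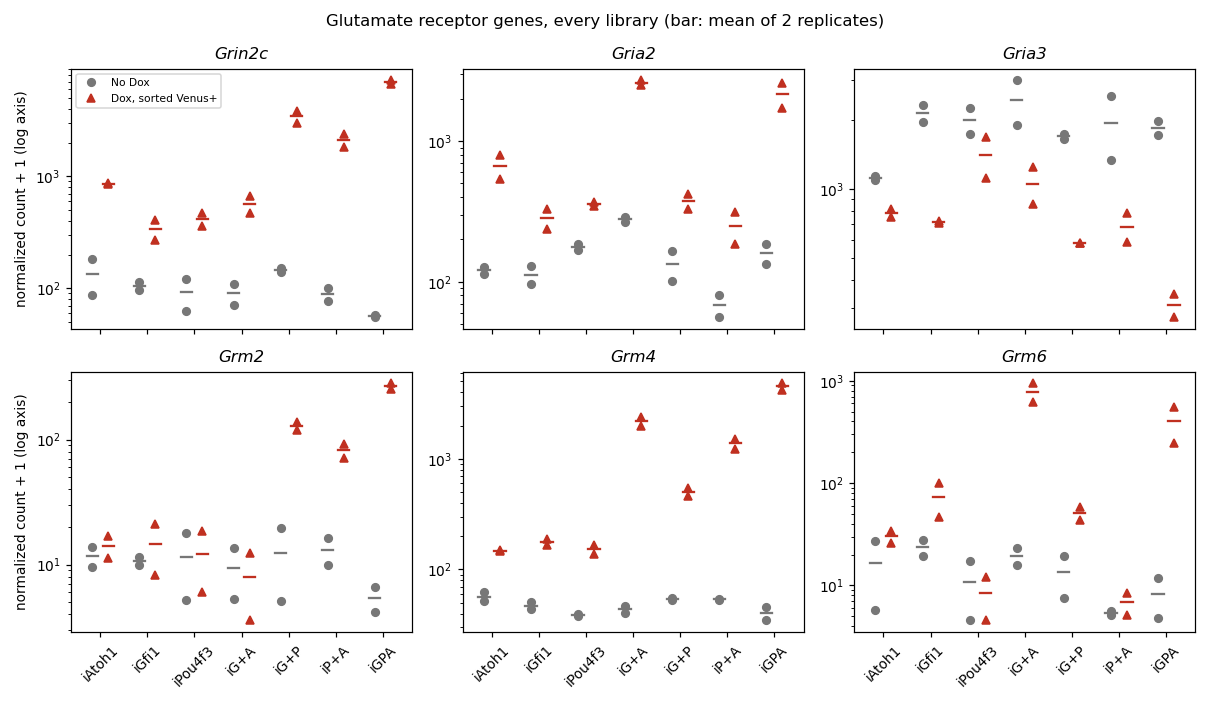
Normalized count + 1 (log axis) of 6 glutamate receptor genes in every library, by line; grey circles are No Dox, red triangles are Dox, and bars are the mean of the 2 libraries. Grin2c and Grm4 lie above their controls in all lines and highest in iGPA, Grm6 in iP+A stays at its control level, and Gria3 lies below its controls.

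Of the GABA-A receptor genes, which code for the chloride channels that GABA opens, Gabra4 and Gabrb2 were called upward. Gabra4 rose in the lines with Pou4f3 other than iGPA. It was at 14.1 and 17.8 normalized counts without and 242 and 163 with Dox in iPou4f3 (log2 fold change 3.57, SE 0.80, adjusted p = 0.0125), at 21 and 3.82 without and 113 and 60 with Dox in iP+A (3.02), and at 14.9 and 12.5 without and 103 and 67.4 with Dox in iG+P (2.52). In iGPA the 2 controls were far apart, at 18.2 and 83.5, and the Dox libraries, at 63.8 and 27.3, lay between them (0.09). The spread of this gene was wide. In iPou4f3 its adjusted p lay between 0.0552 and 0.118 when any 1 library was left out. In iG+P it was lost in 3 of the 4 such fits (up to 0.115, without Dox replicate 1) and in iP+A in 2 (0.16 without No Dox replicate 2, and 0.0998 without Dox replicate 1). In iP+A it was 0.0863 with only the groups compared.

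Gabrb2 rose in iG+P, from 3.06 and 5 to 24.5 and 23.8 normalized counts (2.35, SE 0.40, adjusted p = 0.000141). Its iG+P controls were the lowest untreated values, and against all untreated libraries the value was 1.16, not called. Gabre fell in iG+P, from 1150 and 1008 to 367 and 249 normalized counts (-1.83, SE 0.30, adjusted p = 9.79e-05). These controls were among the highest untreated values, and against all untreated libraries the value was -1.13, not called.

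Gabrp, a subunit found mainly outside the brain, was lower with Dox in all 7 lines, and the fall was called in iG+A (-2.99, SE 0.74), iP+A (-2.76), iGPA (-2.45) and iG+P (-2.11). In iG+A it was at 46.4 and 43.7 normalized counts without and 2.13 and 9.76 with Dox. None of these calls held in every fit without 1 library. The adjusted p was 0.0693 in iG+A without Dox replicate 1, 0.165 in iGPA without No Dox replicate 1, 0.199 in iP+A without No Dox replicate 2 and up to 0.131 in iG+P without No Dox replicate 2. In iP+A it was 0.13 with only the groups compared. Gabra2 fell in iG+A from 7.13 and 8.69 to 0.647 and 0.741 normalized counts (-2.39, adjusted p = 0.0176), at the edge of detection, and lost the call whichever library was left out (adjusted p 0.0557 to 0.0764) and with a pseudocount of 5 (-1.18).

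Gabrb1 and Gabrg3 were not called in any line. Gabrb1, the receptor gene with the highest level per kb, was between 2642 and 3798 normalized counts in all 28 libraries, with log2 fold changes from -0.07 to 0.32, and Gabrg3 had fold changes from -0.18 to 0.21. Gabra3 (0.20 to 1.04), Gabra5 (-1.27 to 0.09), Gabrr2 (-1.35 to 0.79) and Gabrr3 (-0.94 to 1.23) were not called. Gabrd, Gabrg1, Gabrq and Gabrr1 did not pass the filter and did not exceed 9.24 normalized counts in any library.

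The glycine receptor genes were low, Glra3 being at 13.1 to 60.3 normalized counts and the others below 27. Glra2, the subunit of immature neurons, rose in iGfi1 from 2.99 and 3 to 11.6 and 9.28 normalized counts (log2 fold change 1.51, SE 0.53, adjusted p = 0.0423). It was not called with the replicate block (0.0625) nor when any 1 library was left out (0.0819 to 0.199), and was at 1.11 against all untreated libraries and 0.94 with a pseudocount of 5. With only the groups compared the adjusted p was 0.0551. Glra1 (-0.99 to 1.00) and Glra3 (-0.94 to 0.12) were not called. Glra4 spanned -1.95 to 3.78 with an SE of 1.51, and was listed at 0 in many libraries.

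**Figure D4:**
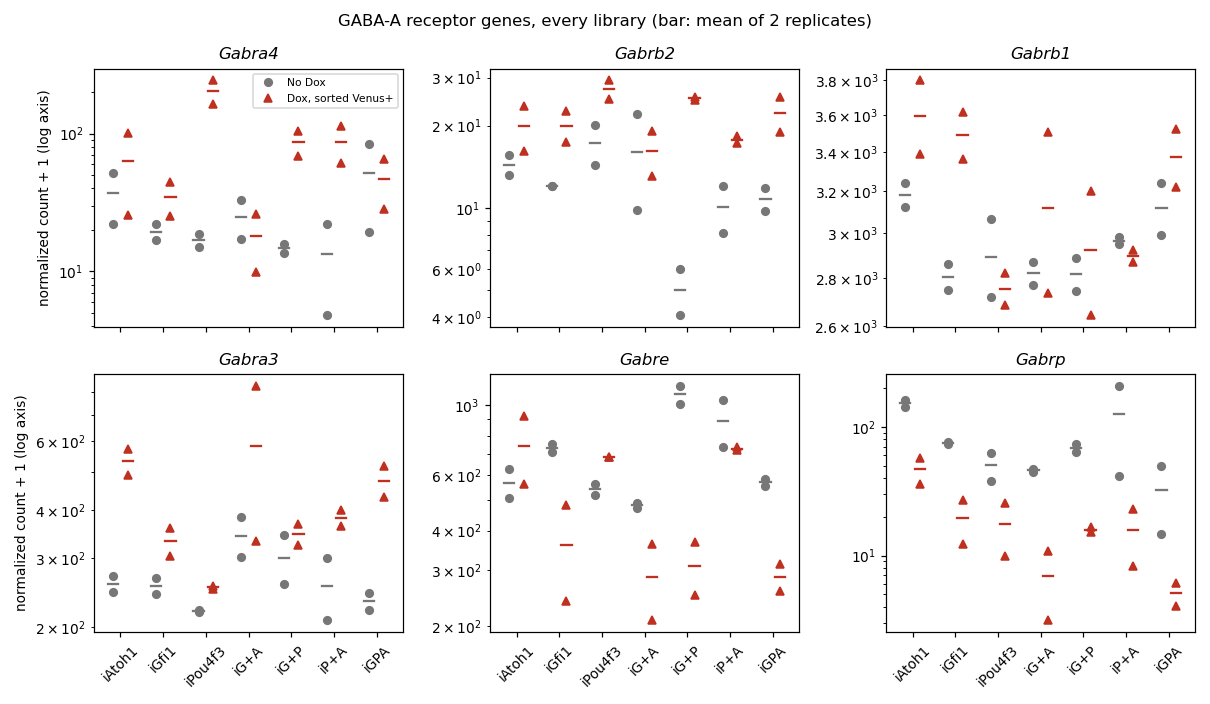
Normalized count + 1 (log axis) of 6 GABA-A receptor genes in every library, by line; grey circles are No Dox, red triangles are Dox, and bars are the mean of the 2 libraries. Gabra4 lies above its controls in iPou4f3, iG+P and iP+A, Gabrb1 spans only 2642 to 3798 normalized counts on its narrow axis, and Gabrp lies below its controls in every line.

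Among the neuronal type nicotinic receptor genes, Chrna5, Chrna3 and Chrnb4 were called only upward, and only in lines that carry Atoh1. Chrna5, Chrna3 and Chrnb4 code for the subunits of the ganglionic nicotinic receptor, and lie side by side on chromosome 9 within 67.7 kb (54828687 to 54896351, NCBIM37, the mm9 assembly). Chrna5 is on the plus strand, and Chrna3 and Chrnb4 are on the minus strand. Because these neighbours were all called upward in iAtoh1, iP+A and iGPA, though not all in iG+A, the 250 bases before each start are shown, 5′ to 3′ on the gene's own strand, as RefSeq gives them for GRCm38.p6 and as they match NCBIM37 exactly. Capitals mark AATCA (the core of Gfi1 sites) and CAGCTG (an E-box, the kind of site that bHLH factors such as Atoh1 bind), and the search also covered CAGATG and TAATTA, a homeodomain core, on both strands.
Chrna5, chr9:54828437-54828686, plus strand: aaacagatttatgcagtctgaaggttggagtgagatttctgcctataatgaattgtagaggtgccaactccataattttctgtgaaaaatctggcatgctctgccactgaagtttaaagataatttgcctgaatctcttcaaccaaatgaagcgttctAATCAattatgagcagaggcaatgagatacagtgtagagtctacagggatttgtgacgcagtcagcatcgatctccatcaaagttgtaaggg
Chrna3, chr9:54874370-54874619, minus strand: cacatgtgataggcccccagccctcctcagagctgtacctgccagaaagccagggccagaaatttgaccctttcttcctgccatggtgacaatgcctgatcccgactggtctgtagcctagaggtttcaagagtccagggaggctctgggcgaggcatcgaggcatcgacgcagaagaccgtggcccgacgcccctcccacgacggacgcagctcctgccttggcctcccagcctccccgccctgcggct
Chrnb4, chr9:54896352-54896601, minus strand: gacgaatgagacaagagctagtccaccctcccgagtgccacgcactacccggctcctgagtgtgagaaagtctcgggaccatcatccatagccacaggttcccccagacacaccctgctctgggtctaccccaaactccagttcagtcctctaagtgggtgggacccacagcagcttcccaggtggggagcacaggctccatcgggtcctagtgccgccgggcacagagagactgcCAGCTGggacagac

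In these windows AATCA began 92 bases before the Chrna5 start, CAGCTG began 14 bases before the Chrnb4 start, and the Chrna3 window held none of the letters searched. Over windows that also take in the first 50 bases of the transcript, 42 of the 62 genes had at least 1 entry, in 50 windows. CAGCTG was in 12% of those and in 16.3% of all 32851 windows of that length, CAGATG in 6% and 17.2%, AATCA in 28% and 37%, and TAATTA in 4% and 5.29%. These are matches of letters and say nothing of binding.

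Chrnb4 was at 83.3 and 31.2 normalized counts in untreated iGPA EBs and at 2436 and 1656 in Dox-treated iGPA cells (log2 fold change 5.27, SE 0.55, adjusted p = 4.55e-07). It also rose in iG+A (3.08), iP+A (2.77) and iAtoh1 (1.90). Chrna3 was at 20.3 and 21.1 without and 684 and 362 with Dox in iP+A (4.52, SE 0.67, adjusted p = 6.73e-05), and at 17.5 and 10.8 without and 411 and 218 with Dox in iGPA (4.35). Its values were 2.02 in iAtoh1 and 1.95 in iG+A. Chrna5, an accessory subunit, was at 14 and 10.9 without and 123 and 52.7 with Dox in iGPA (2.61, SE 0.44, adjusted p = 0.000101), and rose in iP+A (2.31) and iAtoh1 (1.89) but was at -0.02 in iG+A. In iGfi1, iPou4f3 and iG+P their fold changes lay between -0.86 and 1.18 (log2), and none was called.

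In iP+A and iGPA these calls held in each fit without 1 library. In iAtoh1 Chrna3 lost its call whichever library was left out (adjusted p 0.0707 to 0.179), and Chrnb4 lost it without No Dox replicate 2 (0.104) or Dox replicate 1 (0.123). In iG+A Chrna3 was at 0.98 without Dox replicate 2 (adjusted p = 0.323) and at 1.42 without No Dox replicate 1, so that its value there rested on 1 Dox library of 175 normalized counts, the other being at 44.6. Its adjusted p was 0.131 with only the groups compared. The summed level of the 10 neuronal markers was highest in lines where all of these genes rose, but did not follow them in every line. It was 460 to 1443 in the untreated libraries, and with Dox 24488 and 18197 in iP+A, 8493 and 8472 in iGPA, 3313 and 2687 in iAtoh1, and 1527 and 1310 in iG+A. In iG+P it was 1911 and 2333 and in iPou4f3 1570 and 2008, above iG+A, although none of the 3 genes was called in those lines. The order of Chrnb4 was a different one: its Dox level was highest in iGPA, where the neuronal sum was below that of iP+A. The part of neurons in the result was not tested.

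Chrnb2, the partner of Chrna4 in the main nicotinic receptor of the brain, rose in iP+A, from 58 and 41.4 to 397 and 318 normalized counts (2.83, SE 0.22, adjusted p = 2.56e-08). In iGPA it was at 52.4 and 50.1 without and 133 and 131 with Dox (1.35, adjusted p = 6.05e-05), below the fold required. Chrna4 rose in iP+A, from 54.9 and 45.1 to 180 and 162 (1.76, SE 0.38), and in iPou4f3 (1.67), and fell in iGfi1 (-1.59). The iPou4f3 call was lost whichever library was left out (adjusted p 0.0589 to 0.113), and that in iGfi1 without Dox replicate 1 (-1.44, adjusted p = 0.0553). Against all untreated libraries the values were 1.32 in iPou4f3 and -1.44 in iGfi1, neither called. With only the groups compared the adjusted p in iPou4f3 was 0.0759, and with a pseudocount of 5 the value in iGfi1 was -1.36. Chrna7, the subunit of the fast calcium-permeable receptor, fell in all 4 lines that carry Gfi1. It went from 169 and 192 to 39.9 and 32.3 normalized counts in iGPA (-2.29, SE 0.36, adjusted p = 4.68e-05), and was at -2.02 in iG+P, -1.69 in iG+A and -1.65 in iGfi1. The value was -1.42 in iG+A without No Dox replicate 1 and -1.43 in iG+P without Dox replicate 2. In iP+A it was -1.12, from 275 and 153 to 106 and 82.7, under the fold required though its adjusted p was 0.0291. The difference between iGPA and iP+A was not called (-1.17, adjusted p = 0.12). In iAtoh1 it was -0.17. Chrna2 (-1.65 to 0.53) was not called. Chrna6 and Chrnb3, neighbours on chromosome 8, did not pass the filter. Chrna6 was at 9.21 and 7.06 normalized counts in Dox-treated iGPA cells, against at most 2 in every other library.

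The muscle type genes code for the receptor of the neuromuscular junction, where Chrng is the fetal subunit and Chrne replaces it in the adult. Chrng was at 23.2 and 17.9 normalized counts in untreated iG+A EBs and at 446 and 558 in Dox-treated cells (log2 fold change 4.54, SE 0.35, adjusted p = 1.8e-08). It also rose in iGPA, from 22.7 and 17.7 to 161 and 175 (3.00), in iAtoh1, from 19.5 and 28.6 to 166 and 198 (2.89), and in iP+A, from 36.7 and 32.2 to 98.7 and 115 (1.61). These are the lines that carry Atoh1. In iP+A the value was just under the threshold of 1.5 without Dox replicate 2 (adjusted p = 0.0261). Chrnb1, the only beta subunit of the muscle receptor, rose in iGPA, from 179 and 142 to 1393 and 1221 normalized counts (3.02, SE 0.26, adjusted p = 3.75e-08), and in iG+A, from 244 and 208 to 1093 and 1298 (2.40).

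The other muscle type genes were not called. Chrna1, which supplies the agonist-binding subunit of the muscle receptor, did not pass the filter and did not exceed 11.9 normalized counts. Chrnd, the neighbour of Chrng on chromosome 1 (89087227 to 89108410, NCBIM37), did not exceed 17.5 and was at 1.07 and 6.13 in Dox-treated iG+A cells. Chrne had fold changes from -1.03 to 1.17 (log2). Skeletal muscle markers also rose. Of the 7 that passed the filter, of 10 listed, 5 rose and 1 fell in iG+A and 5 rose in iGPA, beside 2 in iGfi1, 1 in iG+P, 1 in iAtoh1, 0 in iPou4f3 (3 at an unadjusted p below 0.05, limma) and 0 in iP+A (1 at an unadjusted p below 0.05). Their summed level was 77.8 to 262 in the untreated libraries, 1007 and 899 in Dox-treated iG+A cells, 602 and 546 in iGPA, 213 and 167 in iAtoh1, and 162 and 151 in iP+A. Myod1 was at 43.6 and 76.9 normalized counts in Dox-treated iG+A cells and at 5.1 and 8.06 in iGPA, Myf6 was listed at 0 in 27 of 28 libraries, and Mymk did not exceed 5.61. The part of muscle cells in the result was not tested; in iAtoh1 and iP+A Chrng rose while this sum lay within the untreated range.

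**Figure D5:**
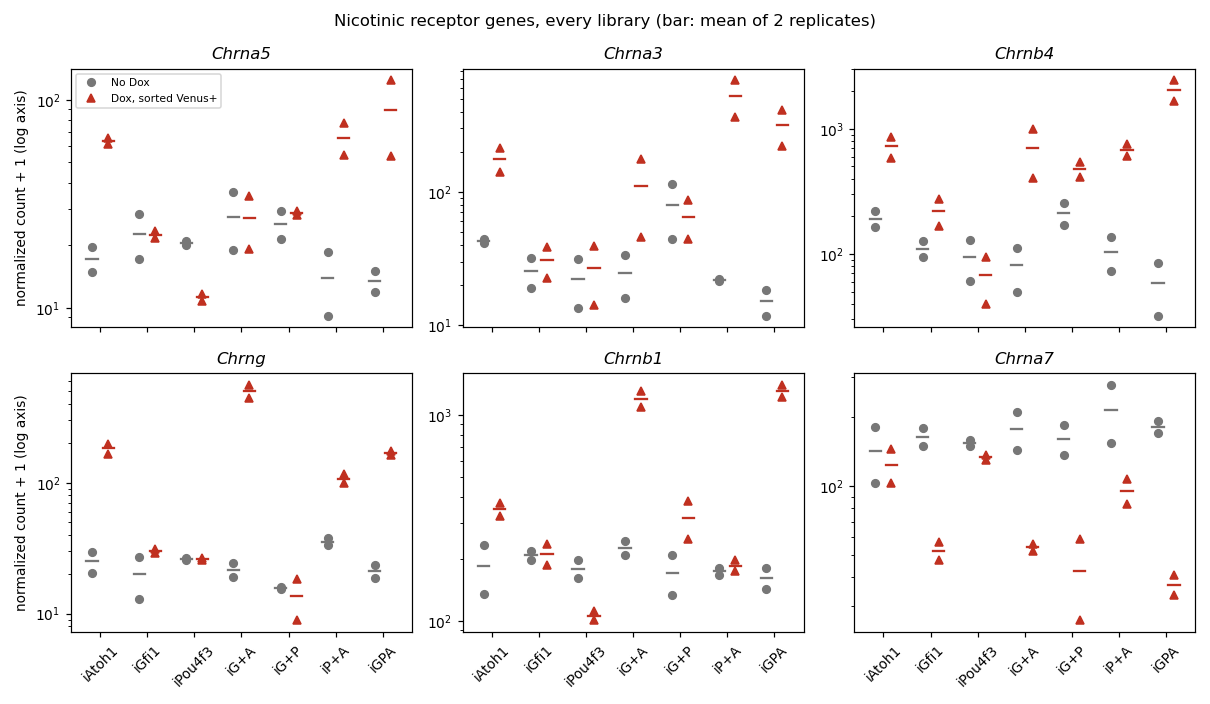
Normalized count + 1 (log axis) of 6 nicotinic receptor genes in every library, by line; grey circles are No Dox, red triangles are Dox, and bars are the mean of the 2 libraries. The Dox triangles of Chrna3, Chrnb4 and Chrng are above the controls in iP+A and iGPA, those of Chrnb1 in iG+A and iGPA, and those of Chrna7 are below the controls in all lines but iAtoh1, with a call in the 4 that carry Gfi1.

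Auxiliary subunits, scaffolds and assembly factors of the same receptors were a list of 56 genes, of which 54 passed the filter. In iGPA 11 rose and 3 fell, in iG+P 9 and 6, in iP+A 7 and 0 (27 at an unadjusted p below 0.05), in iG+A 5 and 4, in iGfi1 3 and 2, in iAtoh1 1 and 2, and in iPou4f3 1 and 0 (19). In both directions together this was 25.9% of the partners in iGPA beside 14% of all genes, 27.8% beside 10.5% in iG+P, 13% beside 7.29% in iP+A, 16.7% beside 12.3% in iG+A and 9.26% beside 4.82% in iGfi1. In iAtoh1 (5.56% beside 5.4%) and iPou4f3 (1.85% beside 2.08%) the share was near that of all genes. The median log2 fold change was between -0.03 and 0.40. Cacng5 and Gsg1l, auxiliary subunits of AMPA receptors, rose in 4 lines each, Cacng5 by 4.63 in iGPA and 3.98 in iP+A and Gsg1l by 2.67 and 2.35 on the log2 scale. Shisa9, another of them, rose in 4 lines (3.09 in iGPA and 4.06 in iP+A), as did Dok7, which organises the neuromuscular junction (2.93 in iGPA). Cacng4 was at 3.46 in iGPA, and Gabbr2, a subunit of the GABA-B receptor, at 3.14 in iP+A.

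Of the cerebellins, which bridge delta receptors to the presynaptic side, Cbln1 fell in 5 lines (-3.68 in iGPA, SE 0.35, adjusted p = 1.34e-07) and Cbln2 rose in 6 (2.46 in iGPA). Cbln4 fell in iG+P (-3.29) and rose in iGPA (2.14), and was at -0.74 in iP+A. Lynx1, a brake on nicotinic receptors, fell in iGPA (-3.14). Dlg1 was at -0.72 in iP+A and was not called.

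The effect of adding a factor was tested as the difference between the Dox effects of a pair of lines. Such lines also differ in clone and cassette. Summed blood markers ranged from 68524 to 487425 over the untreated libraries, and Pou4f3 from 4694 to 19883 over the Dox libraries of lines that carry it. Differences of clone, factor level or control cells cannot be told apart from the factor added. In 10 such comparisons, which share lines with each other, 75 differences in 26 of the 53 genes were past the threshold, where 22.8% of all genes had at least 1, and 45 of them held in each fit without 1 library. They are given on the log2 scale. Larger and smaller are meant with the sign, so that a deeper fall is listed as a smaller effect.

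Adding Gfi1 to Atoh1 (iG+A against iAtoh1) gave a larger effect for 4 genes and a smaller one for 6, where 4.44% and 2.44% of all genes did so. The larger ones were Grm4 (4.26, SE 0.26, adjusted p = 1.78e-08), Grm6 (4.05), Chrng (1.66) and Grik5 (1.51). The smaller ones were Gabra2 (-4.07), Grid1 (-3.05, SE 0.42, adjusted p = 8.72e-05), Grik3 (-2.06), Chrna5 (-1.91), Grik4 (-1.79) and Chrna7 (-1.53). The differences of Chrna5 and Chrna7 were close to the limit, and were each lost in 6 of 8 fits without 1 library. Chrng was lost in 4 of these fits (adjusted p up to 0.102), Grm6 in 2, Grik5 in 2, where it was under the fold required, and Gabra2 in 1. That of Chrna5 was also lost with the replicate block (adjusted p = 0.0621).

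Adding Gfi1 to Pou4f3 (iG+P against iPou4f3) gave 5 larger and 4 smaller effects, beside 3.43% and 4.19% of all genes. Larger were Grm2 (3.56), Grin2c (2.31), Grik1 (2.22), Gabrb2 (1.68) and Chrnb1 (1.65), and smaller were Gabre (-2.17), Grin3a (-1.86), Chrna7 (-1.81) and Chrna4 (-1.79). With the replicate block the adjusted p of Gabrb2 was 0.0785. Grin2c, Grik1 and Gabre held in each of 8 fits without 1 library. Gabrb2 (adjusted p up to 0.173) and Grin3a (0.149) were lost in 6, Grm2 (0.151) and Chrna4 (0.135) in 5, Chrna7 (0.115) in 4 and Chrnb1 in 2. Adding Gfi1 to Pou4f3 and Atoh1 (iGPA against iP+A) gave 6 larger and 3 smaller effects, beside 4.76% and 2.84% of all genes. Grm6 differed most (5.32, SE 1.06, adjusted p = 0.00191), followed by Chrnb1 (2.94), Chrnb4 (2.50), Grin2c (2.36), Grm4 (2.15) and Gria2 (1.89). Chrna4 (-2.48) and Grid1 (-1.86) were among the smaller ones, and with the replicate block 5 genes were. Chrnb4 was lost in 5 of 8 fits without 1 library (down to 1.81, adjusted p up to 0.164).

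Adding Pou4f3 to Atoh1 (iP+A against iAtoh1) gave 3 larger effects, of Grm4 (3.29), Chrnb2 (2.30) and Grin2c (1.80), and 0 smaller, beside 2.09% and 0.689% of all genes (limma, with 16 genes at an unadjusted p below 0.05 in either direction). That of Grin2c was lost in 5 of 8 fits without 1 library. Adding it to Gfi1 (iG+P against iGfi1) gave 1 larger effect, of Grin2c (2.89, SE 0.47, adjusted p = 0.00126), and 0 smaller, beside 1.42% and 0.428% of all genes (14 at an unadjusted p below 0.05, limma). With the replicate block 3 were larger and 2 smaller. Adding it to Gfi1 and Atoh1 (iGPA against iG+A) gave 5 larger effects, of Grm2 (6.01, SE 1.06, adjusted p = 0.00216), Grin2c (4.26), Chrna5 (2.64), Grik3 (2.23) and Grik4 (1.97), and 0 smaller, beside 1.6% and 0.6% of all genes (15 at an unadjusted p below 0.05, limma). With the replicate block 8 were larger. Chrna5 was lost in 4 of 8 fits without 1 library (adjusted p up to 0.113). Grin2c was the member with a larger effect in all 3 of these comparisons.

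Adding Atoh1 to Pou4f3 (iP+A against iPou4f3) gave 8 larger effects and 1 smaller, beside 1.44% and 0.172% of all genes. The chromosome 9 genes had the highest values, with Chrna3 at 4.31 (SE 0.94, adjusted p = 0.0149), Chrnb4 at 3.29 and Chrna5 at 3.17. Of 8 fits without 1 library, Chrnb4 was lost in 5 (adjusted p up to 0.131), Chrna3 in 3 (0.102) and Chrna5 in 1 (0.0574, without iP+A Dox replicate 1). With only the groups compared none of them was called (adjusted p = 0.0887, 0.0599 and 0.0533). Chrnb2 (2.97), Grm4 (2.71), Grin2c (2.34), Grid1 (1.83) and Grik3 (1.83) were the others, of which Grid1 was lost in 5 such fits and Grin2c and Grik3 in 2 each. Adding Atoh1 to Gfi1 and Pou4f3 (iGPA against iG+P) gave 9 larger effects and 1 smaller, beside 4.24% and 1.66% of all genes. Chrna3 (4.55, SE 0.94, adjusted p = 0.00302) and Chrnb4 (4.09) again had the highest values, and Chrna5 was at 2.42, lost in 3 of 8 fits without 1 library (adjusted p up to 0.0842). Grm4 (3.61), Grm6 (3.56), Chrng (3.30), Grin2c (2.38), Gria2 (2.21) and Chrnb1 (2.13) were also larger, and Grm6 was lost in 4 of those fits (up to 0.147). Adding Atoh1 to Gfi1 alone (iG+A against iGfi1) gave 5 larger effects, of Chrng (3.87), Grm6 (3.76), Grm4 (3.73), Chrnb1 (2.38) and Gria2 (1.90), and 2 smaller, Grin2a (-3.38) among them, beside 5.17% and 3.37% of all genes. Grin2a was lost in 6 of 8 fits without 1 library (-1.88, adjusted p = 0.201, without iG+A Dox replicate 2), without the trend (0.0539) and with only the groups compared (0.0871), and Grm6 was lost in 1 fit (0.0548). In that comparison the cluster did not pass the threshold (Chrna3 1.69, Chrnb4 2.12 and Chrna5 -0.06), and with the replicate block 4 genes were smaller. Grm4 was larger in all 3 comparisons that add Atoh1.

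Across the whole span, iGPA against iAtoh1, 8 effects were larger and 4 smaller, beside 6.05% and 2.99% of all genes. Larger were Grm4 (5.44), Grm2 (5.39), Grm6 (4.36), Grin2c (4.16), Chrnb4 (3.37), Chrnb1 (2.05), Grik1 (1.68) and Grik5 (1.5). Smaller were Grid1 (-2.56), Chrna7 (-2.12), Chrna4 (-2.08) and Gria3 (-2.07). Grik1 (adjusted p up to 0.176) and Grik5 (under the fold required) were each lost in 4 of 8 fits without 1 library, and Chrna4 in 1.

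Comparing the Dox libraries of a pair of lines directly, without their controls, left 60 of the 75 differences past the threshold. For Gabrb2 between iG+P and iPou4f3 the direction turned (-0.11, adjusted p = 0.874). Among those then under the fold required were Gabre (-1.18) and Chrna4 (-1.03) between iG+P and iPou4f3, Grin2c between iGPA and iG+P (1.02) and between iP+A and iAtoh1 (1.29), and Grid1 between iGPA and iP+A (-1.34). So were Chrna5 (-1.30), Chrna7 (-1.17), Chrng (1.45) and Grik5 (1.30) between iG+A and iAtoh1, and Gria3 (-1.34), Grik1 (1.15) and Grik5 (1.38) between iGPA and iAtoh1.

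With only the groups compared, some further differences had an adjusted p above 0.05. Between iG+A and iAtoh1 these were Chrna5 (0.147), Chrna7 (0.138) and Chrng (0.0762), and between iG+P and iPou4f3 Grm2 (0.0857), Gabrb2 (0.0739), Chrna7 (0.0561) and Chrna4 (0.0531). Between iP+A and iPou4f3 they were Grin2c (0.0629) and Grid1 (0.0558) beside the chromosome 9 genes. Grin2c between iP+A and iAtoh1 (0.126), Chrna5 between iGPA and iG+A (0.186), and Grik1 (0.157) and Chrna4 (0.0725) between iGPA and iAtoh1 were among the others. Scaling, the filter, the trend or a pseudocount of 5 ended the call of Chrna5, Chrna7 and Chrng between iG+A and iAtoh1, Gabrb2 and Grin3a between iG+P and iPou4f3, and Grik1 between iGPA and iAtoh1.

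Because every Dox library was sorted, Dox-treated cells of different lines were also compared with each other, where sorting does not differ between the sides but the clones do. Between iGPA and iP+A cells 7 genes were higher and 4 lower in iGPA, beside 5.3% and 5.19% of all genes. Grm6 was higher by 5.81 (SE 0.75, adjusted p = 1.02e-05), Chrna2 by 3.18, Gria2 by 3.13, Chrnb1 by 2.82, Grin2c by 1.72, Grm4 by 1.72 and Chrnb4 by 1.57. Grin2a (-3.42), Chrna4 (-2.68) and Grik3 (-1.91) were among those that were lower. Chrna2 was at 11.3 and 12.1 normalized counts in Dox-treated iGPA cells and at 0 and 0.961 in iP+A cells. Chrnb4 was lost in all 4 fits without 1 library (adjusted p 0.0546 to 0.181), and Chrna2 and Grin2a in 1 each.

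Between iGPA and iAtoh1 cells 8 genes were higher and 6 lower in iGPA, beside 6.28% and 4.27% of all genes. Grm4 was higher by 4.93 (SE 0.19, adjusted p = 2.06e-12), Grm2 by 4.27, Grm6 by 3.64, Gria1 by 3.35, Grin2c by 3.01, Chrnb1 by 1.91, Gria2 by 1.69 and Chrnb4 by 1.5. Gabrp (-3.20), Chrnd (-2.96), Gabra2 (-2.52), Grid1 (-2.04), Chrna7 (-1.72) and Chrna4 (-1.57) were lower, of which Chrnd and Gabra2 were below 25 normalized counts in all 4 libraries. Chrnd was at 17.5 and 5.59 in iAtoh1 cells and at 0 and 1.01 in iGPA cells. It passed the filter only through the iAtoh1 library at 17.5 and 1 untreated iP+A library at 10.2. Chrnb4 was lost in all 4 fits without 1 library (adjusted p 0.0619 to 0.21), under both other scalings and without the trend. Gria2, Chrnd and Gabra2 were each lost in 2 of the 4, and Chrna4 and Chrna7 in 1. With a pseudocount of 5 Chrnd and Chrna4 (-1.45) were under the fold required, and with only the groups compared the adjusted p of Chrna4 was 0.0646. Grm4, Grm6, Grin2c and Chrnb1 were higher in iGPA cells in both of these comparisons, which share the iGPA libraries, and held in each such fit.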

How the data were processed

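RNA-seq libraries of EBs and sorted EB cells were prepared with an mRNA kit and sequenced on an Illumina instrument. Per the paper's methods, the authors trimmed reads with cutadapt, quantified them with Kallisto on the UCSC mm9 gene set and normalized them with DESeq2. The deposited values are log2(normalized count + 1) for 19421 genes. Normalized counts were recovered from them with the pseudocount of 1. Whole reads could not be, so no count test was run.

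Genes that reached a normalized count of 10 in 2 or more libraries were fitted with limma 3.58.1 (R 4.3.3, trend) over 14 groups, with Benjamini-Hochberg adjustment over 16837 genes. Fold changes are on the log2(normalized count + 1) scale and understate changes of low genes. A call needed an adjusted p below 0.05 and a log2 fold change of at least 1.5. The fit was tested on simulated data. Levels per kb used the longest transcript. The replicate number marks a clone within a line, and same-numbered Dox and No Dox libraries deviated together with correlations of 0.10 to 0.25, so a fit with a replicate block was an alternative. Other alternatives were pseudocounts, filters, scalings, controls and leaving out each library.

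The receptor genes and the lists of partners and of neuronal, hair cell, glia, skeletal muscle, cardiac muscle, endothelium, blood, fibroblast and pluripotency markers were chosen with earlier results of these data known. Receptor genes are described by class, and the partners named were taken from those called in at least 4 lines or among the 3 largest rises or falls in iGPA or iP+A. p-values rest on the spread between the 2 libraries of a group, pooled over the 14 groups and moderated by limma. The main fit does not pair the Dox and No Dox libraries of a clone. Gabra6 was not analysed here, and some members that entered the fits and counts are not reported here by name.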

Additional observations from a re-analysis of the deposited data

Results flagged for a closer look

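For 26 receptor genes the Dox effect differed between a pair of lines by the test of the difference itself, and the difference of largest size is repeated here for 24 of them on the log2 scale. No explanation was tested for any of them. Those lost when 1 library was left out, such as Grin2a, Gabrb2 and Grin3a in 6 of 8 fits each, are given in the text above, as are those lost when the Dox libraries were compared directly, among them Gabrb2 (-0.11, the opposite direction) and Gabre (-1.18).

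Among the glutamate receptors, Grm2 (6.01), Grin2c (4.26), Grik3 (2.23) and Grik4 (1.97) had larger effects in iGPA than in iG+A. Grm6 (5.32) had a larger effect in iGPA than in iP+A, Grm4 (5.44) in iGPA than in iAtoh1, and Gria2 (2.21) in iGPA than in iG+P. Gria3 differed by -2.07 between iGPA and iAtoh1, Grid1 by -3.05 and Grik5 by 1.51 between iG+A and iAtoh1, and Grin2a by -3.38 between iG+A and iGfi1. Grik1 (2.22) and Grin3a (-1.86) differed between iG+P and iPou4f3.

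Among the GABA-A receptors, Gabra2 differed by -4.07 between iG+A and iAtoh1, and Gabre (-2.17) and Gabrb2 (1.68) between iG+P and iPou4f3. Among the nicotinic receptors, Chrna3 (4.55) and Chrnb4 (4.09) differed between iGPA and iG+P, Chrna5 (3.17) and Chrnb2 (2.97) between iP+A and iPou4f3, Chrnb1 (2.94) and Chrna4 (-2.48) between iGPA and iP+A, Chrna7 (-2.12) between iGPA and iAtoh1, and Chrng (3.87) between iG+A and iGfi1.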

How the results depend on the processing

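With a log2 threshold of 1, 13 rose and 1 fell in iAtoh1, 3 fell in iP+A, 21 rose and 7 fell in iGPA, 2 effects were larger in iG+P than iGfi1, 1 was smaller in iGPA than iG+A and 6 in iGPA than iP+A, and in sorted cells 11 were higher and 9 lower in iGPA than iP+A and 13 higher than in iAtoh1. At that threshold the shares of all genes were, in the same order, 4.6%, 4.25%, 4.69%, 12.3%, 8.12%, 1.91%, 0.915%, 4.32%, 7.99%, 8.37% and 9.2%. With only the groups compared, 3 rose in iPou4f3, 0 fell in iP+A, 0 effects were smaller in iG+A than iGfi1, 2 were larger and 1 smaller in iG+P than iGfi1, 3 larger and 2 smaller in iG+P than iPou4f3, and 3 larger in iP+A than iPou4f3. Quantile normalization gave 2 falls in iP+A, 1 smaller effect in iG+P than iGfi1 and 2 in iGPA than iG+A, and all untreated libraries as one control gave 2 falls in iP+A. Comparing Dox libraries directly gave 6 higher in iP+A than iAtoh1, 1 lower in iG+A than iGfi1, 6 higher and 3 lower in iG+P than iGfi1, 2 lower in iGPA than iG+A and 0 lower in iGPA than iG+P, and Gabrb2 changed sign between iG+P and iPou4f3 (-0.11, adjusted p = 0.874). Without the trend 1 effect was smaller in iG+A than iGfi1, and with a pseudocount of 5, 2 were larger in iG+P than iGfi1 and 1 smaller in iGPA than iG+A.

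In the paired fit with the replicate block, 1 gene fell in iAtoh1, 4 effects were smaller in iG+A than iGfi1, 3 larger and 2 smaller in iG+P than iGfi1, 8 larger in iGPA than iG+A and 5 smaller in iGPA than iP+A. It took the call from 4 of 156 gene results, given in the text, and from no other.

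Leaving out 1 library at a time, the falls numbered 0 to 2 in iAtoh1, 2 to 5 in iG+A, 2 to 4 in iG+P and 1 to 2 in iP+A, and the rises 1 to 3 in iGfi1 and 5 to 8 in iG+P. Larger effects numbered 2 to 6 for iG+A against iAtoh1, 1 to 2 for iG+P against iGfi1, 2 to 5 for iG+P against iPou4f3 and 2 to 7 for iP+A against iPou4f3. Smaller ones numbered 0 to 4 for iG+A against iGfi1, 0 to 1 for iG+P against iGfi1, 1 to 4 for iG+P against iPou4f3, 0 to 2 for iGPA against iG+A, 0 to 1 for iGPA against iG+P and 3 to 6 for iGPA against iP+A. Where a group was left with 1 library, that library was assumed to vary like the other groups. The cause of these changes was not tested. For the settings of this section other than the log2 threshold of 1, shares of all genes were not computed. Those counts therefore cannot be set against all genes. In the main fit, genes that did not reach 10 normalized counts in at least 2 of the 28 libraries were not tested. Genes that passed were tested in every comparison, also where the libraries compared were below 10. Gabra2 in iG+A, at 7.13 and 8.69 without and 0.647 and 0.741 with Dox, is an example.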

Other observations

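The remaining marker lists give the cells beside which the receptor genes were measured. Of 6 blood markers 4 fell in iAtoh1, 4 in iG+A, 4 in iP+A, 3 in iGPA and 1 in iG+P. Of 6 pluripotency markers 5 fell in iP+A, 4 in iG+A, 3 in iGPA and 1 in iG+P. Of 4 endothelium markers 2 fell in each of iAtoh1 and iG+P, and 1 in each of iP+A and iGPA. Of 7 cardiac muscle markers 2 fell in iG+P and 1 in iGfi1. Of 5 glia markers 1 rose in every line except iPou4f3 and iG+A, and 1 fell in each of iAtoh1, iG+A and iGPA. Their part in the receptor results was not tested.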
